A study of Rattus norvegicus with 69 samples.

Results

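Pieces of rat seminiferous tubule were compared between stage VIII of the cycle of the seminiferous epithelium and the group of stages that follows it, IX-XI. The comparison used the 10 samples whose titles name these stages, 5 of each, out of 69 samples in the series, of which 49 were staged tubules. All came from Sprague Dawley rats of 55 to 60 days, for which the labels name no treatment, transgene or mutation. Each sample pooled tubules of 2 rats, with 25 segments per rat chosen by their pattern under transillumination, so that the spread between samples is that between pools. The source names of the later group read IX-XII where its titles and the protocol read IX-XI, and the labels do not settle which is right. Isolated Sertoli cells (4 samples), round spermatids (4) and pachytene spermatocytes (4) of the same ages, and spermatogonia plus early spermatocytes (3) of rats of 18 to 20 days, served only to show where a transcript is found. Levels are signal intensities of an expression array on which every array was scaled to the same trimmed mean of 100, given as mean ± SD of 5 samples unless stated otherwise.

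In the tubule wall, germ cells of several generations lie around the Sertoli cells, the somatic cells that feed and hold them, and each stage is a fixed set of such generations. At stage VIII the mature spermatids are released into the lumen, and preleptotene spermatocytes enter meiosis and cross the blood-testis barrier. The round spermatids of this stage carry the acrosome, a cap of enzymes over the front of the nucleus. In the stages that follow, the same spermatids turn their heads to the wall and begin to elongate, their nuclei lose general transcription, and late pachytene spermatocytes near the meiotic divisions. Retinoic acid is known to act at this point of the cycle, and Sertoli cells take up the residual cytoplasm that the released spermatids leave behind.

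The samples lay where their labels put them along the cycle. A position was computed for each sample from the 2137 probe sets that differed between the stages on either side, with 0 for the mean of stage VIIc.d and 1 for that of stage XII. Stage VIII had 0.232 ± 0.048 (SD, n = 5) and stages IX-XI had 0.724 ± 0.035 (SD, n = 5), and the groups did not overlap, with 0.188 to 0.313 against 0.675 to 0.759. Replicate 1 of stage VIII was the one nearest to stages IX-XI. Defining genes of Sertoli cells and of spermatids were present in both groups, such as Wt1 (156 to 192 at stage VIII, 125 to 186 at stages IX-XI) and Tnp1 (5150.2 to 11609.6 and 8201 to 23591). Median array signals were 44.4 to 49.5, and the mean correlation of an array with its own group was 0.898 to 0.941. Replicates 2 and 3 of stages IX-XI stood apart in the 3'/5' ratio of the actin controls, a sign of RNA quality, with 2.65 and 2.72 against 1.61 to 1.81 in the other 3 samples of the group and 1.79 to 2.12 at stage VIII. Results that rest on these samples are given with and without them.

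Between stage VIII and stages IX-XI, some transcripts of the acrosome (Acrv1, Actl7b, Acr and Spam1) and of other spermatid products fell. So did Prnd, Amhr2 and Ctsl, which were highest in isolated Sertoli cells. The glutathione transferase transcript Gstp1 and the heme synthesis transcript Alas2, also highest in isolated Sertoli cells, rose. The retinal reductase transcript Rdh11 rose as well. Of 22258 probe sets tested, 547 (2.46%) were lower and 211 (0.948%) were higher at stages IX-XI, with an adjusted p under 0.05 and a difference of at least 2-fold. Among 12003 genes, each represented by its strongest probe set, 361 (3.01%) were lower and 102 (0.850%) higher by the same rule. With no minimum fold, 1203 genes (10%) were lower and 1280 (10.7%) higher. The falls went further than the rises: 66 of the 547 lower probe sets and 8 of the 211 higher ones differed at least 4-fold, and the median folds were 2.50 and 2.37. In 390 of the lower and 126 of the higher probe sets, the 5 samples of one group did not overlap the 5 of the other, against 2491 (11.2%) of all probe sets tested. Many calls were of weak probe sets. A mean level under 64 over all tubules was that of 243 of the 547 lower and 118 of the 211 higher, and of 10003 of the 22258 tested. These are tubule pieces with many cell types, in which fewer cells of a type and less RNA per cell cannot be told apart.

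**Figure D1:**
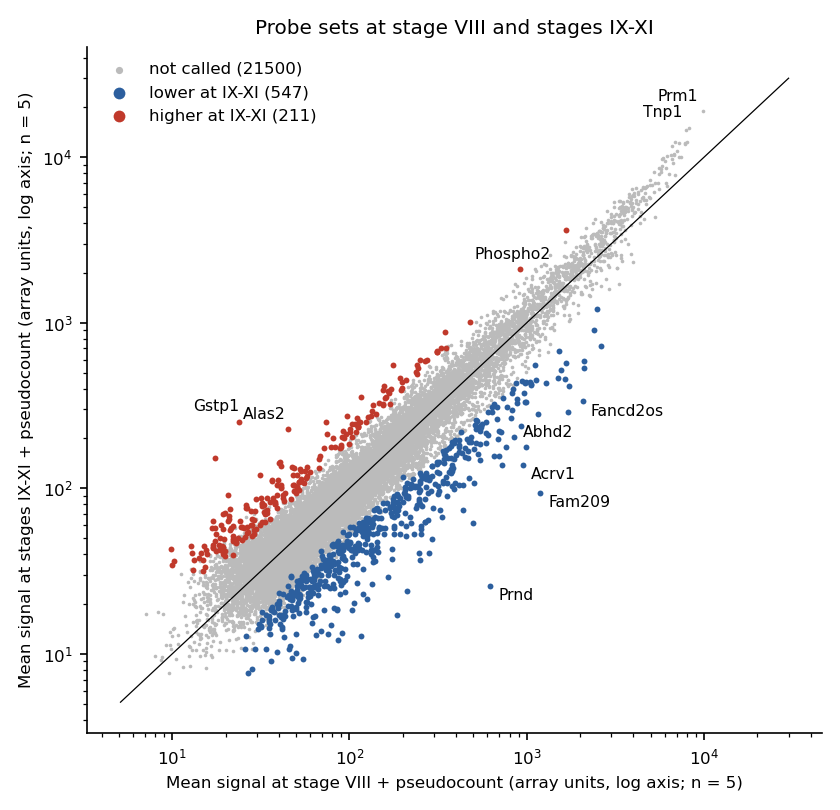
Mean signal at stages IX-XI against mean signal at stage VIII for the probe sets tested, both with the pseudocount of 5.11 added and on log axes, n = 5 per stage; the line marks equal signal. Blue points were called lower (547) and red points higher (211), with Prnd farthest below the line and Gstp1 farthest above it among the labelled genes, while Prm1 and Tnp1, at the top right, were not called.

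The 12 largest falls and the 12 largest rises were taken among called genes whose groups did not overlap and whose mean was at least 200 in the higher group, so that a gap between the groups is part of that choice. The largest fall was that of Prnd, which encodes doppel, a prion-like protein of the cell surface. Its signal in the 5 samples of stage VIII was 528, 749.6, 637, 543 and 623, and at stages IX-XI it was 45.4, 39.8, 5.43, 9.20 and 3.58. The groups were separated by a wide gap, and 3 of the later samples lay near the bottom of the array's range. The log2 difference was -4.97 (SE 0.37, adjusted p = 6.65e-15), whose size depends on the pseudocount because the later signals are so low. Among isolated cells Prnd was a Sertoli cell transcript, with 2567 there and 20.04 in round spermatids. Fam209, a gene expressed in spermatids, had 875, 1312, 1219, 1233 and 1258 at stage VIII and 122, 115, 62.3, 60.98 and 84.3 at stages IX-XI. That is a log2 difference of -3.70 (SE 0.32, adjusted p = 1.01e-12) without overlap, although replicate 1 of stage VIII was lower than the other 4.

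Several of the deepest falls were in strongly expressed transcripts, so that they do not depend on weak signals. Fancd2os, a gene on the strand opposite Fancd2, had 1698, 2314, 2264, 1953 and 2069 at stage VIII and 331, 394, 408, 256 and 271 at stages IX-XI (log2 difference -2.63, SE 0.13, adjusted p = 1.46e-20). Abhd2, which encodes a serine hydrolase that acts on acylglycerols, had 1589, 1846, 1734, 1695 and 1685 and then 269, 323, 299, 271 and 266 (log2 difference -2.56, SE 0.11, adjusted p = 5.01e-24). Both groups were tight for Abhd2, and its lowest sample at stage VIII was far above its highest at stages IX-XI. Acrv1, which encodes the acrosomal vesicle protein SP-10, had 898, 985, 959.6, 914 and 955 and then 210.5, 131, 125, 115 and 86.8 (log2 difference -2.83, SE 0.19, adjusted p = 4.58e-16). Here too no sample overlapped.

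The other 7 of the 12 largest falls went from 205 to 18.7 for Tmem89 (log2 difference -3.26) and from 493 to 56.7 for Samt3 (-3.05), which both encode membrane proteins. Tbc1d23, for a protein of endosome to Golgi transport, had 275 ± 49.8 and 35.5 ± 18.4 (log2 difference -2.88). Dact3, for an inhibitor of Wnt signalling, had 287 ± 56.9 and 44.1 ± 36.4 (-2.86). Srgn, for the core protein of a secretory granule proteoglycan, had 433 ± 86.5 and 68.4 ± 16.9 (-2.58). C3h11orf91 and Prr27, whose roles are little known, fell by 2.74 and 2.60 on the log2 scale. The adjusted p-values of these 7 genes ran from 1.59e-16 for Tmem89 to 4.21e-08 for Dact3, and none of them had a sample at stages IX-XI as high as its lowest at stage VIII.

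For the genes with the largest falls, the 250 bases before the RefSeq start of the gene (assembly GRCr8) were searched for TGACG, the core of the cAMP response element, the motif bound by CREB and CREM, on both strands. The spermatid factor CREM is known to drive many genes of round spermatids, which is why these stretches are shown. Of the 12 genes, 4 held the core (33.3%), namely Tbc1d23, Dact3, Srgn and Abhd2. The last 120 bases before the start follow for the 3 whose match lies in them, 5′ to 3′ in the sense of the gene, with the match or its reverse complement in capitals.
Dact3 (chr1:86674873-86674992, plus strand): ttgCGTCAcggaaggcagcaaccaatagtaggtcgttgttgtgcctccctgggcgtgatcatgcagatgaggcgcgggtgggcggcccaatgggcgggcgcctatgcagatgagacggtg
Srgn (chr20:31000104-31000223, minus strand): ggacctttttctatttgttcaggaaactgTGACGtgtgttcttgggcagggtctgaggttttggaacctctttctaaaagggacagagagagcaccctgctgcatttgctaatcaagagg
Abhd2 (chr1:142626628-142626747, plus strand): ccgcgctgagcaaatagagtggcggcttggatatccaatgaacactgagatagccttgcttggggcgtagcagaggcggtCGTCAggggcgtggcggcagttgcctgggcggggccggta
The match begins 117 bases before the start in Dact3, 91 in Srgn and 40 in Abhd2. The core was about as frequent in the promoters of all genes tested (2690 of 9958, 27.0%) as in those of the lower genes (87 of 303, 28.7%) and the higher genes (24 of 94, 25.5%), and it was in 18.96% of all 27457 promoters listed. The palindrome TGACGTCA, which contains the core, was in 8 of the 303 lower (2.64%), 2 of the 94 higher (2.13%) and 290 of the 9958 tested (2.91%). A match is a run of letters and not a measured binding site.

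Among the rises, Gstp1 moved most. It encodes a glutathione transferase that joins glutathione to reactive compounds. Its signal was 19.9, 22.01, 12.9, 17.1 and 22.02 in the samples of stage VIII and 181, 243, 261, 271 and 285 at stages IX-XI, so that the lowest later sample was far above the highest earlier one. The log2 difference was 3.41 (SE 0.26, adjusted p = 1.65e-14). Over the whole cycle Gstp1 had 2 high periods, with 272 at stage VI and 279 at stage XII, and a trough in which the means were 31.98, 15.9 and 18.8 at stages VIIa.b, VIIc.d and VIII. In isolated cells it was 1162 in Sertoli cells and 515 in the group of spermatogonia plus early spermatocytes, but 12.3 and 10.5 in pachytene spermatocytes and round spermatids.

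Alas2, the first enzyme of heme synthesis in red cell precursors, had 40.6, 42.8, 32.4, 48.9 and 35.9 at stage VIII and 239, 235, 155, 247 and 239.6 at stages IX-XI. The groups did not overlap, and replicate 3 of stages IX-XI was lower than the rest of its group (log2 difference 2.33, SE 0.23, adjusted p = 5.38e-11). The isolated Sertoli cells had 738, against 78.5 or less in each germ cell group. Reep1, which encodes a protein that shapes the endoplasmic reticulum, went from 112 ± 21.6 to 354 ± 8.88 (log2 difference 1.64, adjusted p = 5.74e-08) and was likewise highest in isolated Sertoli cells, at 1733. So were Itm2c, for a membrane protein of the BRI family, at 339 ± 25.03 and 873 ± 121 (1.34), and Hes6, for a transcriptional regulator, at 141 ± 32.3 and 322 ± 33.3 (1.19).

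Other rises, those of Rfx4, Crybg2, Rdh11, Fam89b and Ggact, were highest in isolated pachytene spermatocytes. Rfx4, for a transcription factor of the RFX family, had 72.1, 81.8, 50.4, 61.3 and 82.5 at stage VIII and 159, 275, 193, 221 and 197 at stages IX-XI (log2 difference 1.52, SE 0.25, adjusted p = 6.72e-06). Crybg2 had 131 ± 19.04 and 314 ± 75.9 (1.20), and its level of 433 in pachytene spermatocytes was more than 4-fold that in each of the other 3 isolated groups. Its highest samples were replicates 2 and 3 of stages IX-XI, and without them the difference was 0.97 (adjusted p = 1.10e-04), under 2-fold. Rdh11, Fam89b and Ggact, the last for gamma-glutamylamine cyclotransferase, rose by 1.27, 1.27 and 1.19 on the log2 scale. Phospho2, for a phosphatase, was the strongest of the 12 largest rises and about as high in pachytene spermatocytes (2548) as in round spermatids (2574). It had 1015, 897, 911, 843 and 915 at stage VIII and 2207, 2136, 2208, 2076 and 1892 at stages IX-XI (log2 difference 1.19, SE 0.10, adjusted p = 5.01e-13). Gosr1, for a Golgi SNARE protein, had 279.6, 118, 115, 154 and 131 and then 309.8, 521, 445, 293 and 352, with replicate 1 of stage VIII close to the later samples (1.29, adjusted p = 0.00332). Without replicates 2 and 3 of stages IX-XI the difference for Gosr1 was 1.05 (adjusted p = 0.0653). A second probe set of Ggact and 2 others of Gosr1, all weaker, did not pass the test.

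**Figure D2:**
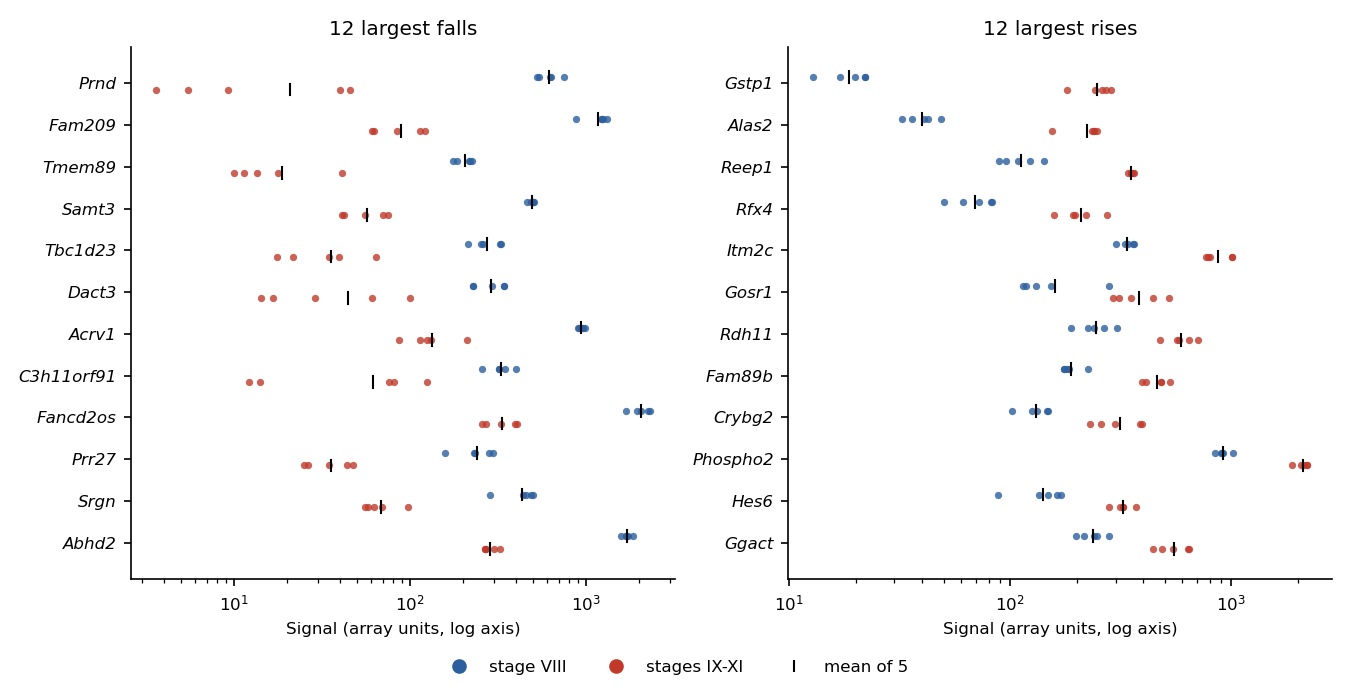
Signal of every sample (points, log axis, array units) for the 12 largest falls and the 12 largest rises, with the means of 5 samples as black ticks. In each of the 24 genes the 5 samples of stage VIII (blue) lie apart from the 5 of stages IX-XI (red).

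Among genes of the acrosome more fell than rose. Of 15 tested, 9 were lower and 4 higher at an adjusted p under 0.05, where 10% of all genes were lower and 10.7% higher, shares that hold for every list that follows. This list and those that follow were chosen with earlier results of these data known, so their counts are a description. The summed signal of the 15 genes overlapped, with 15645 to 19347 at stage VIII and 15765 to 25037 at stages IX-XI, and the median log2 difference was -0.58, against -0.02 over all genes. Acrv1, Actl7b, Acr and Spam1 fell at least 2-fold (4 of 15, 26.7%, against 3.01% of all genes), and no member rose that much. Actl7b, an actin-like protein of spermatids, had 875, 1052, 951, 992 and 1022 at stage VIII and 349.8, 386, 289, 296 and 312 at stages IX-XI (log2 difference -1.57, SE 0.11, adjusted p = 1.00e-15). Acr, which encodes the acrosomal protease acrosin, had 630.3, 842, 949, 808 and 862 and then 391, 195, 223, 325 and 327 (-1.502, adjusted p = 2.84e-07). In both the groups were apart. Spam1, for the sperm hyaluronidase, had 125, 131, 132, 269 and 278 and then 114, 27.7, 51.00, 21.4 and 24.5, where replicate 1 of stages IX-XI came close to the lowest sample of stage VIII (-2.02, adjusted p = 1.03e-06). After quantile normalization the same list had 9 lower and 2 higher.

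Among genes that pack the spermatid nucleus, 1 fell at least 2-fold, Camk4, for a calcium and calmodulin dependent kinase that acts on protamine. It had 722, 949, 1016, 802 and 874 at stage VIII and 373, 397, 318, 282 and 328 at stages IX-XI (log2 difference -1.35, SE 0.17, adjusted p = 2.23e-08), while a much weaker second probe set did not pass the test. Kat5, the acetyltransferase Tip60, rose from 350.3 ± 37.5 to 596 ± 87.3 without overlap (0.75, adjusted p = 1.75e-08). Of the 15 tested genes of the list, 6 were higher and 1 lower at an adjusted p under 0.05.

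For the protamines and transition proteins, which replace the histones in the condensing nucleus, the measured rises were under 2-fold and depended on 4 of the 10 samples. Prm1 had 13522, 12136, 11594, 6242 and 6135 at stage VIII and 13461, 28367, 30939, 9889 and 12223 at stages IX-XI. The highest values were those of replicates 2 and 3 of stages IX-XI and the lowest those of replicates 4 and 5 of stage VIII, and the other 6 samples overlapped. The log2 difference for Prm1 was 0.86 (SE 0.24, adjusted p = 0.00734). Tnp1, Tnp2, Prm2 and Prm3 had 0.81, 0.80, 0.63 and 0.48, each with an adjusted p between 0.00461 and 0.0257. Without replicates 2 and 3 of stages IX-XI the differences for Prm1, Tnp1, Tnp2, Prm2 and Prm3 were 0.33, 0.31, 0.31, 0.37 and 0.21, with adjusted p-values of 0.469, 0.502, 0.598, 0.299 and 0.357. Leaving out replicate 2 alone, or replicate 3 alone, also ended the calls of Prm1, Prm2, Tnp1 and Tnp2 but not that of Prm3. Leaving out either of replicates 4 and 5 of stage VIII did so for Prm2, Tnp1 and Tnp2. Quantile normalization, which gives all arrays the same set of values, left 0.00, 0.08, 0.06, 0.16 and 0.07 for the same 5 genes, and 1 gene of the list higher and 1 lower in place of 6 and 1. Hils1, for a linker histone of spermatids, had 0.29 (adjusted p = 0.626) and -0.24 after quantile normalization.

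The same 4 samples stood apart in the median of the strongest transcripts. For the 69 probe sets whose mean level over all tubules was over 4096, the median log2 difference was 0.49, after quantile normalization 0.02, and without replicates 2 and 3 of stages IX-XI 0.25. For the 9019 probe sets between 64 and 256 these medians were -0.04, -0.01 and 0.00. Deviations of the strongest probe sets were taken as medians against the mean of the 10 samples. They were 0.58 and 0.59 in replicates 2 and 3 of stages IX-XI, the pair with the highest actin ratios. In replicates 4 and 5 of stage VIII they were -0.58 and -0.55. The other 6 samples lay between -0.12 and 0.07. The pair of stage VIII also led its own group in the actin ratio, at 2.08 and 2.12, but deviated downward. By the GAPDH controls too, each pair was highest in its group, at 1.36 and 1.71 (IX-XI) and 1.62 and 1.53 (VIII). The part of RNA quality or of array scaling in the rises of strong transcripts was not tested. None of the 69 strongest probe sets was called at 2-fold, so that the counts of calls hold none of them.

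**Figure D3:**
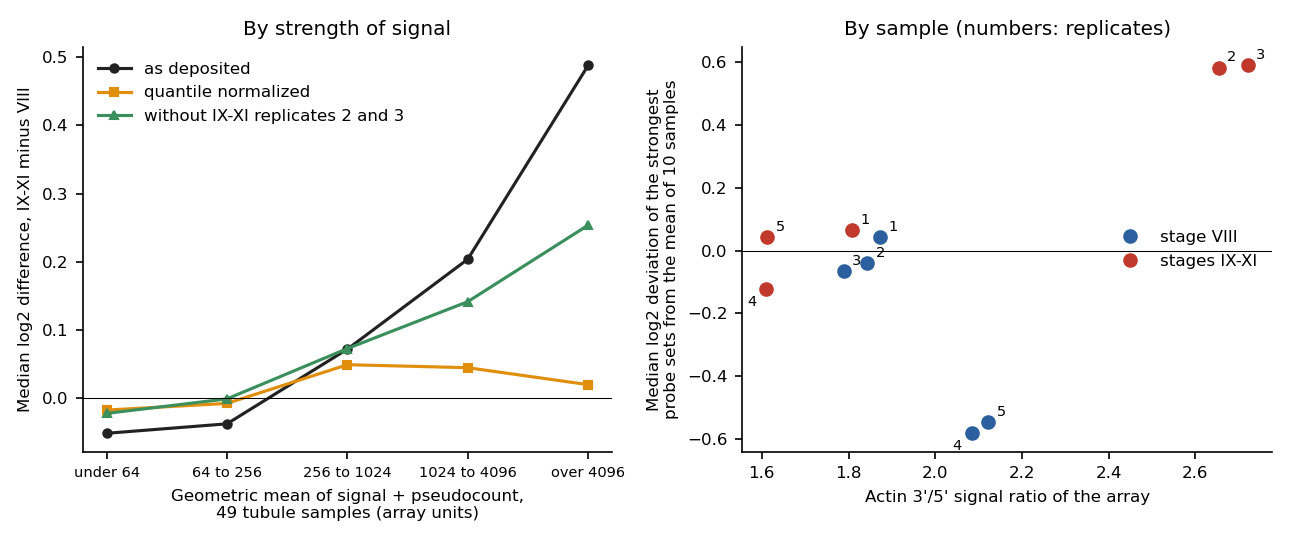
Left, median log2 difference between stages IX-XI and stage VIII for probe sets grouped by their mean signal over the 49 tubule samples, as deposited, after quantile normalization and without 2 samples. Right, for each of the 10 samples, the median log2 deviation of the strongest probe sets (over 4096) from the mean of the 10 against the actin 3'/5' ratio: replicates 2 and 3 of stages IX-XI lie at the top right and replicates 4 and 5 of stage VIII at the bottom.

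Genes of nuclear shaping and of the manchette, the microtubule skirt that shapes the nucleus, formed a joint list. It had 4 higher and 2 lower of 16 at an adjusted p under 0.05 (3 and 4 after quantile normalization). Fam209 alone was past 2-fold, and its place in this list does not make it a manchette gene. Among 22 flagellum genes, Tekt5, for a tektin filament protein of the axoneme, fell from 555 ± 73.1 to 239 ± 28.7 (log2 difference -1.20, SE 0.28, adjusted p = 0.00114) without overlap. At an adjusted p under 0.05 the flagellum list had 10 higher and 6 lower members with a median of 0.33. After quantile normalization it had 3 higher and 8 lower with a median of -0.08, so that its balance turned with the scaling. Genes of spermatid metabolism and signalling turned in the same way, from 4 higher and 2 lower of 15 (median 0.25) to 0 higher and 4 lower (median -0.14), and none differed at least 2-fold.

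Genes of meiosis moved in both directions. Of 16 genes of pachytene and diplotene, 5 were higher and 5 lower at an adjusted p under 0.05, and 2 fell at least 2-fold, Acr and Mdc1. Acr is also in the acrosome list, and in isolated cells it was at 1356 in round spermatids and 372 in pachytene spermatocytes. Mdc1, which encodes a mediator of the response to DNA breaks and marks the sex chromosomes in pachytene, had 335, 407, 454, 439 and 419.7 at stage VIII and 146, 99.7, 84.1, 77.3 and 92.4 at stages IX-XI (log2 difference -2.01, SE 0.17, adjusted p = 7.67e-13). The groups were far apart, and in isolated cells Mdc1 was at 386 in round spermatids and 284 in pachytene spermatocytes. Of 14 genes of entry into meiosis, leptotene and zygotene, 1 was higher and 1 lower, neither by 2-fold. Of 17 regulators of RNA and transcription in germ cells, 6 were higher and 6 lower, with Rfx4 alone past 2-fold.

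Among 35 genes of DNA replication, 8 were lower and 5 higher at an adjusted p under 0.05 (10% and 10.7% of all genes), and the summed signal of the list was 9697 to 10194 in the samples of stage VIII and 8944 to 9384 at stages IX-XI, without overlap. Pold3, a subunit of DNA polymerase delta, fell from 1050.2 ± 78.5 to 418 ± 53.6 (log2 difference -1.32, adjusted p = 6.55e-12), although a second, weaker probe set had 0.08. The medians of the summed signal were 9939 and 9331, so that the fall of Pold3 alone was about as large as that of the sum. Among isolated cells Pold3 was highest in round spermatids, at 884. Ccne1, for cyclin E1, fell from 208 ± 23.4 to 82.1 ± 26.9 (-1.34, adjusted p = 7.03e-10). Among 33 genes of the G2 and M phases, 9 were higher and 4 lower (10.7% and 10% of all genes), and their summed signal was 8719 to 10136 and then 10229.8 to 11039, again without overlap. None of the higher members reached 2-fold, whereas Ube2c, the ubiquitin conjugating enzyme of the anaphase promoting complex, fell from 453 ± 61.7 to 193 ± 36.2 (-1.22, adjusted p = 7.36e-13). Ube2c was highest at stage I (918) and in isolated round spermatids (986).

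Of 19 spermatogonial genes, Dmrt1 alone changed by 2-fold, with 80.3, 88.9, 102, 126 and 103 at stage VIII and 68.01, 24.7, 11.2, 89.2 and 71.8 at stages IX-XI. It encodes a transcription factor of spermatogonia and Sertoli cells. The groups overlapped, and the lowest values were those of replicates 2 and 3 of stages IX-XI (log2 difference -1.11, adjusted p = 6.78e-04). Without these replicates the difference was -0.36 (adjusted p = 0.191), and leaving out either alone brought it under 2-fold.

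Among the listed Sertoli cell genes more fell than rose. Of 36 tested, 10 were lower and 2 higher at an adjusted p under 0.05, against 10% and 10.7% of all genes. At least 2-fold, 3 fell and 1 rose, against 3.01% and 0.850% of all genes. This was not so for the 334 probe sets at least 4-fold higher in isolated Sertoli cells than in each germ cell group. Of these, 17 were called higher and 17 lower at 2-fold, against 0.948% and 2.46% of all probe sets tested. Amhr2, the receptor of anti-Müllerian hormone, had 175, 201, 203, 226 and 216 at stage VIII and 79.3, 101, 79.8, 81.8 and 78.8 at stages IX-XI (log2 difference -1.23, SE 0.12, adjusted p = 5.56e-11). Ctsl, for the lysosomal protease cathepsin L, had 388, 522, 498, 443 and 475 and then 176, 191, 214, 187 and 159 (-1.30, SE 0.13, adjusted p = 9.04e-11). Neither gene had overlapping samples, although a weaker second probe set of Ctsl did not pass the test. Vim, the intermediate filament protein vimentin, went the other way, with 179.7, 130.2, 95.9, 128 and 112 and then 259.6, 314, 382, 277 and 212 (1.13, SE 0.20, adjusted p = 3.29e-05). Without replicates 2 and 3 of stages IX-XI the difference for Vim was 0.94 (adjusted p = 0.00355), under 2-fold, and it was also under 2-fold with a pseudocount of 32. In isolated cells Vim was at 2592 in Sertoli cells and 2549.8 in the group of spermatogonia plus early spermatocytes.

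Other Sertoli cell genes moved by less than 2-fold or not detectably. Tubb3, Hopx, Cst9l and Ptgds fell by 0.76, 0.54, 0.51 and 0.43 on the log2 scale, with adjusted p-values of 3.73e-05, 0.00204, 2.42e-04 and 0.00548 and no overlap in any of them. For Ptgds, the prostaglandin D2 synthase, the means were 409.9 ± 24.8 and 303 ± 12.2. Gata4, for a transcription factor of Sertoli cells, fell by 0.36 (adjusted p = 0.0193), a call that was lost without replicate 3 of stages IX-XI or without replicate 2 of stage VIII. Cst12, the other higher member beside Vim, rose by 0.41 (adjusted p = 0.0442) with overlapping samples. Without replicates 2 and 3 of stages IX-XI it had 0.19 (adjusted p = 0.564). Wt1, Shbg and Rhox5 had -0.23, -0.10 and -0.54, none past the test, with 95% intervals of -0.49 to 0.04, -0.33 to 0.13 and -1.42 to 0.34. The summed signal of the 36 genes overlapped between the groups, with 12234 to 13929.9 and 11967 to 12894.

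Retinoid genes are of interest because retinoic acid acts at this point of the cycle. Of 25 tested, 3 were higher and 2 lower at an adjusted p under 0.05, near the 10.7% and 10% of all genes. Rdh11, whose enzyme turns retinal into retinol, had 303, 225, 189, 266 and 239 at stage VIII and 569, 477, 580.3, 706 and 642 at stages IX-XI. Every later sample was above every earlier one (log2 difference 1.27, SE 0.10, adjusted p = 1.14e-13). Dhrs4, for another short-chain reductase, had 80.5 ± 23.3 and then 23.5 ± 13.5 (-1.69, adjusted p = 0.00262), but its second probe set had 0.06. Without replicates 2 and 3 of stages IX-XI Dhrs4 had -1.25 (adjusted p = 0.0792).

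Cyp26a1, the enzyme that breaks down retinoic acid, had low signals of 47.5, 55.2, 64.4, 55.9 and 50.2 at stage VIII and 80.4, 89.03, 76.2, 95.3 and 87.1 at stages IX-XI. The 2 groups were apart (log2 difference 0.61, SE 0.19, adjusted p = 0.0226), yet the call was lost without replicate 4 of stages IX-XI, without replicate 1 of stage VIII or without replicate 5 of stage VIII. Rdh10, which makes retinal from retinol, had 2357, 2444, 2302, 2078 and 2146 and then 1720.4, 1936, 1694, 1785 and 1812. No sample overlapped, but the difference of -0.34 (95% interval -0.68 to -0.00) did not pass the test in the fit of all 49 tubules (adjusted p = 0.187). In a fit of the 10 samples alone, which uses only their own spread, it did, at -0.34 (adjusted p = 0.0092). Aldh1a1 and Aldh1a2, which make retinoic acid, had -0.36 and 0.16 (95% intervals -0.64 to -0.09 and -0.03 to 0.36), and Cyp26b1, Stra6 and Lrat had -0.12, -0.22 and -0.56, none past the test.

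Of 36 genes of cell junctions and the ectoplasmic specialization, by which Sertoli cells hold spermatids and each other, 5 were higher and 4 lower at an adjusted p under 0.05. Prkcz, the atypical protein kinase C of cell polarity, had 27.7, 29.5, 66.2, 29.3 and 28.1 at stage VIII and 125, 84.2, 165, 146 and 133 at stages IX-XI. Replicate 3 of stage VIII was high for its group but below every later sample (log2 difference 1.76, SE 0.35, adjusted p = 1.82e-04). Among isolated cells Prkcz was a germ cell transcript, with 171 in pachytene spermatocytes, 71.3 in round spermatids and 3.04 in Sertoli cells. Arpc3, a subunit of the actin branching complex Arp2/3, rose from 525 ± 27.7 to 835 ± 146 (0.65, adjusted p = 1.41e-05). Gja1, for the gap junction protein connexin 43, fell from 252 ± 23.8 to 164 ± 22.1 (-0.61, adjusted p = 8.66e-05), with 2 weak probe sets at 0.00 and 0.37 that did not pass. Lamb3, the laminin beta 3 chain, fell from 206 ± 13.5 to 130.2 ± 14.3 (-0.65, adjusted p = 0.00145). Gja1 was highest in isolated Sertoli cells (1910), but Lamb3 in round spermatids (373, against 8.69 in Sertoli cells). Samples did not overlap in Arpc3, Gja1 or Lamb3. F11r, the junctional adhesion molecule A, had -0.19 (95% interval -0.44 to 0.07), which did not pass the test.

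Among 37 proteases and inhibitors, 9 were lower and 5 higher at an adjusted p under 0.05, and the 3 that fell at least 2-fold were Ctsl, Plau and A2m. Plau, the urokinase plasminogen activator, had 125, 206, 198, 194 and 149 at stage VIII and 52.7, 45.00, 8.51, 60.3 and 73.9 at stages IX-XI (log2 difference -1.94, SE 0.36, adjusted p = 6.24e-05), and its second probe set moved the same way, by -0.96 (adjusted p = 2.73e-04). A2m, for the broad inhibitor alpha-2-macroglobulin, had low signals of 16.9, 35.1, 56.3, 70.7 and 48.8 and then 41.3, 8.23, 2.80, 11.5 and 39.8, which overlapped (-1.19, adjusted p = 0.00419). Without replicates 2 and 3 of stages IX-XI A2m had -0.52 (adjusted p = 0.328), and without replicate 3 alone it was under 2-fold. Of 36 genes of phagocytosis and the lysosome, the machinery by which Sertoli cells clear residual bodies, 2 were higher and 4 lower, against 10.7% and 10% of all genes, and none reached 2-fold.

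Of 23 immediate early and heat shock genes, 8 were lower and 0 higher at an adjusted p under 0.05 in limma (10 lower and 2 higher at an unadjusted p under 0.05), against 10% and 10.7% of all genes, and 3 fell at least 2-fold. The other 15 did not pass the test, and the summed signal of the list overlapped, with 5479 to 6439 at stage VIII and 4936 to 5640.1 at stages IX-XI. After quantile normalization 7 were lower and 1 higher. Klf4, for a zinc finger transcription factor found in spermatids and Sertoli cells, had 337, 510.4, 539, 543 and 572 at stage VIII and 110.0, 134, 75.2, 91.6 and 99.99 at stages IX-XI (log2 difference -2.24, SE 0.15, adjusted p = 9.28e-16). The groups were far apart, with replicate 1 of stage VIII the lowest of its group. Isolated spermatogonia plus early spermatocytes had the most Klf4 (2820), against 1196 in round spermatids and 680 in Sertoli cells. The highest tubule mean of Klf4 was 1503, at stages IV-V. Dusp1, for a phosphatase of MAP kinases, fell from 113 ± 16.9 to 49.6 ± 7.28 (-1.11, adjusted p = 1.99e-05) without overlap, while its second probe set had -0.89 and did not pass. Fosb, a subunit of the AP-1 factor, was weak, with 26.98 ± 10.3 and 10.9 ± 8.47, and overlapped (-1.13, adjusted p = 0.0457). Its call was lost in 13 of 19 alternatives, among them when replicate 2, 3 or 4 of stages IX-XI or replicate 1, 2, 3 or 5 of stage VIII was left out, with adjusted p up to 0.532. Isolated spermatogonia plus early spermatocytes had 767 of Dusp1 and 1852 of Fosb, and isolated Sertoli cells 640 and 822. The highest tubule means were 126 and 35.0, both at stage VIIc.d. Pachytene and round spermatid samples had 52.9 or less of either. The part of cell isolation in the levels of Klf4, Dusp1 and Fosb was not tested.

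Of 21 genes of cholesterol synthesis, 6 were lower and 2 higher at an adjusted p under 0.05 (10% and 10.7% of all genes), counts that quantile normalization did not change, and the summed signal was 5458 to 6224 at stage VIII and 4161 to 4359 at stages IX-XI, without overlap. Cyp51, the lanosterol demethylase, had 148, 248, 211, 198 and 189 and then 66.3, 126, 95.9, 83.1 and 68.8 (log2 difference -1.15, SE 0.20, adjusted p = 2.25e-05), and its second probe set was at -0.999 (adjusted p = 1.31e-04). Among 36 genes of ubiquitin and the proteasome, 8 were higher and 6 lower. Usp7, a deubiquitinase, fell from 931 ± 109.6 to 441 ± 20.5 (-1.06, adjusted p = 3.38e-12) without overlap, with 3 weaker probe sets at -0.67 to -0.11, none called.

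Over the 23 lists together, 479 genes were tested, of which 23 (4.80%) fell and 6 (1.25%) rose at least 2-fold, against 3.01% and 0.850% of all genes. As the lists were chosen with earlier results of these data known, these shares are a description and support nothing. The summed signal of a list did not overlap between the groups in 3 of the 23, DNA replication, G2 and M phases, and cholesterol synthesis. For DNA replication the fall of the sum was about that of Pold3 alone. Markers of other cell types that tubule pieces can carry mostly did not pass the test. In limma none of 9 Leydig cell and 10 endothelial genes had an adjusted p under 0.05 (1 of each was lower at an unadjusted p under 0.05), and 2 of 12 genes of the peritubular myoid cells were lower, neither by 2-fold. Their summed signals in the samples of stage VIII and of stages IX-XI were 1487 to 1781 and 1355 to 1548 for Leydig cells, 447 to 572 and 262 to 519.8 for endothelium, and 1238 to 1536 and 999.7 to 1263 for myoid cells. The Leydig cell sum was mostly that of Ephx1, with means of 1026 and 881, while Insl3 had 41.1 and 55.1 and Cyp11a1 80.9 and 78.5. Of 9 macrophage and blood genes, Alas2 and Mrc1 were higher and 7 did not pass the test. Mrc1, the mannose receptor, had 164, 77.2, 89.1, 102 and 83.8 at stage VIII and 210.2, 211, 232, 211 and 208 at stages IX-XI (log2 difference 1.07, SE 0.14, adjusted p = 8.55e-08). It was under 2-fold without replicate 2 of stage VIII. The summed signal of this list, 2662 to 3542 and 3215 to 4339, overlapped and was mostly that of Aif1, at 2616 and 3075. Of the other 6 genes that did not pass, Cd14 and Lyz2 had higher means at stages IX-XI (39.6 and 53.6 at stage VIII, 48.1 and 60.6 later). Csf1r, Tyrobp and Cd74 had lower ones (71.0, 56.5 and 25.5 at stage VIII, 62.9, 43.5 and 24.96 later), as did the hemoglobin gene Hbb (35.7 and 17.1), and no marker of the list was at 0. The part of macrophages or red cell precursors in Alas2 and Mrc1 was not tested. Isolated Sertoli cells had 927 of Mrc1, more than any other isolated group.

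The direction of these changes was then set against stages VIIc.d and XII, which lie on either side and share no sample with the comparison. Of the 547 probe sets lower at stages IX-XI, 522 (95.4%) were also lower at stage XII than at stage VIIc.d, and 400 (73.1%) were called lower there. Of the 211 higher ones, 189 (89.6%) were higher at stage XII and 137 (64.9%) were called higher. In neither set was a probe set called in the opposite direction. Among all probe sets tested, 52.5% were lower and 47.5% higher at stage XII than at stage VIIc.d by sign alone, and 5.28% were called lower and 4.32% higher. Replicates 2 and 3 of stage VIIc.d had actin ratios of 2.86 and 2.71, as high as those of the same numbers at stages IX-XI.

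In most of the lower probe sets the highest mean was at another stage than VIII, and in most of the higher ones at another than IX-XI. Of the 547 lower probe sets, 124 (22.7%) had their highest mean of the 10 stage groups at stage VIII, 136 (24.9%) at VIIc.d, 104 (19.01%) at VI and 88 (16.1%) at VIIa.b. Their lowest mean was at stages IX-XI in 160 (29.3%) and at XIII-XIV in 161 (29.4%). Of the 211 higher ones, 67 (31.8%) were highest at stages IX-XI itself and 73 (34.6%) at XIII-XIV. Fam209 went from 3053 at stage VIIa.b through 2496 and 1179 to 88.8 and then 18.9 at stage XII. Abhd2 rose late and fell fast, with 389 at stage VI, 2452 at VIIc.d, 1709.8 at VIII and 285 at IX-XI. Phospho2 had its lowest mean at VIIc.d (782) and climbed through 916 and 2104 to 2969 at XII and 3969.8 at stage I. Itm2c differed, being lowest at stage VIII itself (339), with 841 at VIIa.b and 873 at IX-XI.

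**Figure D4:**
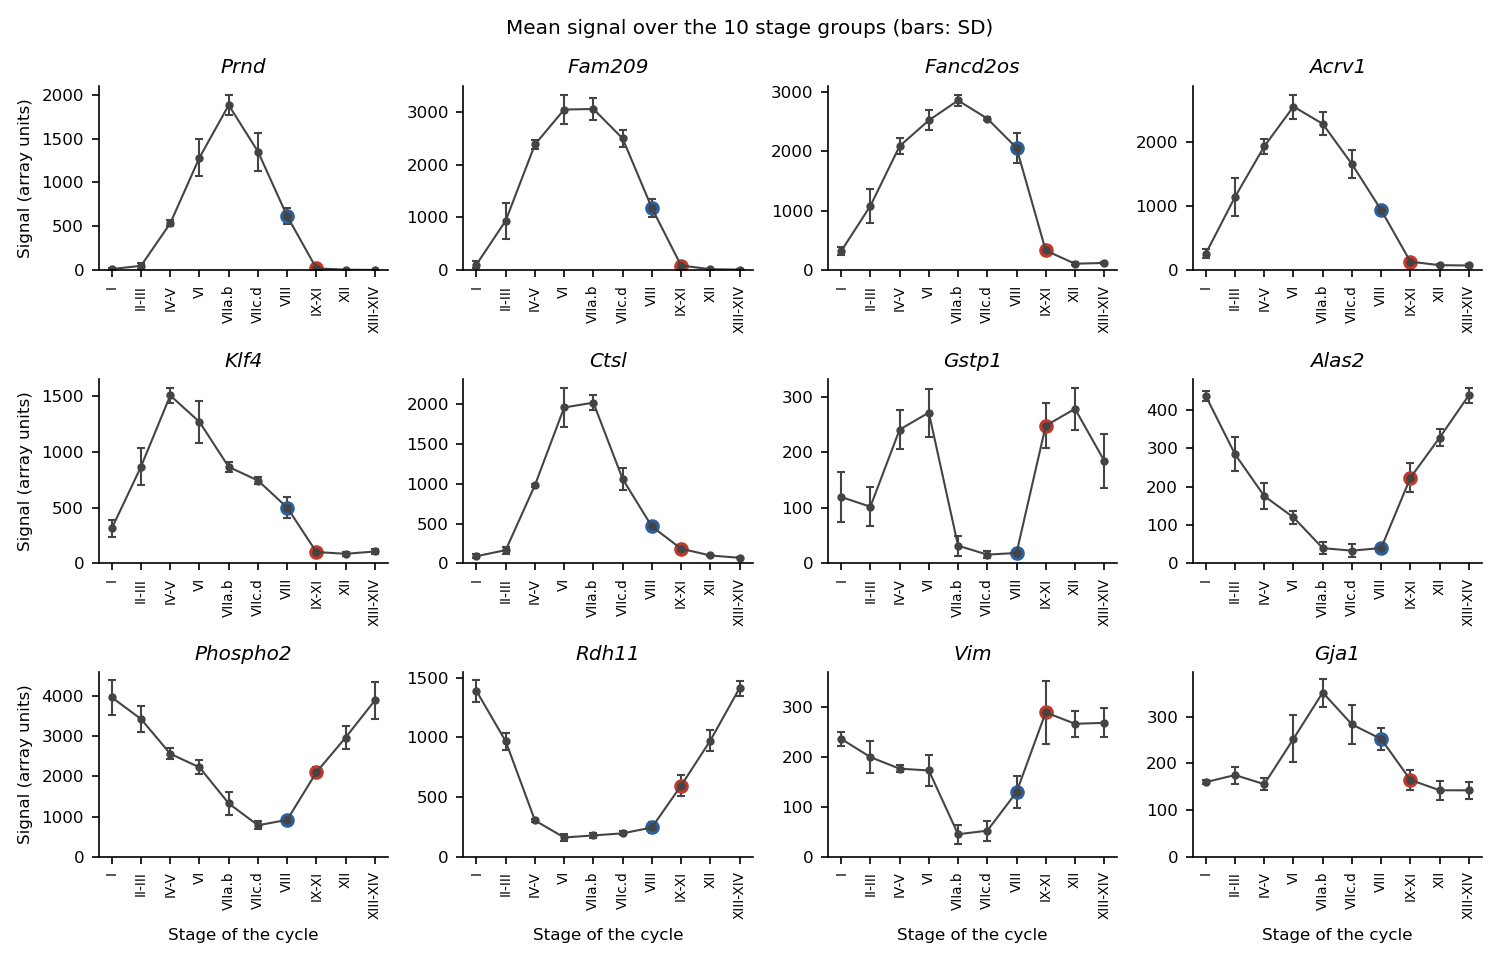
Mean signal (array units, linear axes from 0) of 12 genes over the 10 stage groups, with SD as bars and 5 samples per group (4 at IV-V). Stage VIII is marked blue and stages IX-XI red: Prnd, Fam209, Fancd2os, Acrv1, Klf4 and Ctsl had passed their highest level before stage VIII, while Alas2, Phospho2 and Rdh11 were still below their later maximum at IX-XI.

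Most probe sets that changed were not enriched in a single isolated cell group. At a limit of 4-fold over each of the other groups, 420 of the 547 lower (76.8%) and 184 of the 211 higher (87.2%) were enriched in none, against 95.8% of all tested. Probe sets at least 4-fold higher in round spermatids than in each of the other 3 isolated groups made up 1.82% of those tested (406) but 19.6% of the lower ones (107 of 547), and none of the higher ones. Those enriched in pachytene spermatocytes were few, 49 in all, of which 10 (20.4%) were higher at stages IX-XI and 0 lower. Of 334 probe sets enriched in Sertoli cells, 17 (5.09%) were higher and 17 lower. Of 142 enriched in spermatogonia plus early spermatocytes, 3 were lower and none higher. Acrv1, Fam209, Fancd2os, Samt3, Tmem89, Tbc1d23, C3h11orf91 and Prr27, among the 12 largest falls, were in the round spermatid set, and Prnd was in the Sertoli cell set. Over the whole set of lower probe sets the median level in round spermatids was 0.75 (log2) above the mean of the 4 isolated groups, against 0.08 for all probe sets. For the higher set it was pachytene spermatocytes that stood above the mean, by 0.76, against 0.14 for all. These cells were 85% to 95% pure by the labels, and Sertoli cells about 85%, so that a low level in one of them can come from another.

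**Figure D5:**
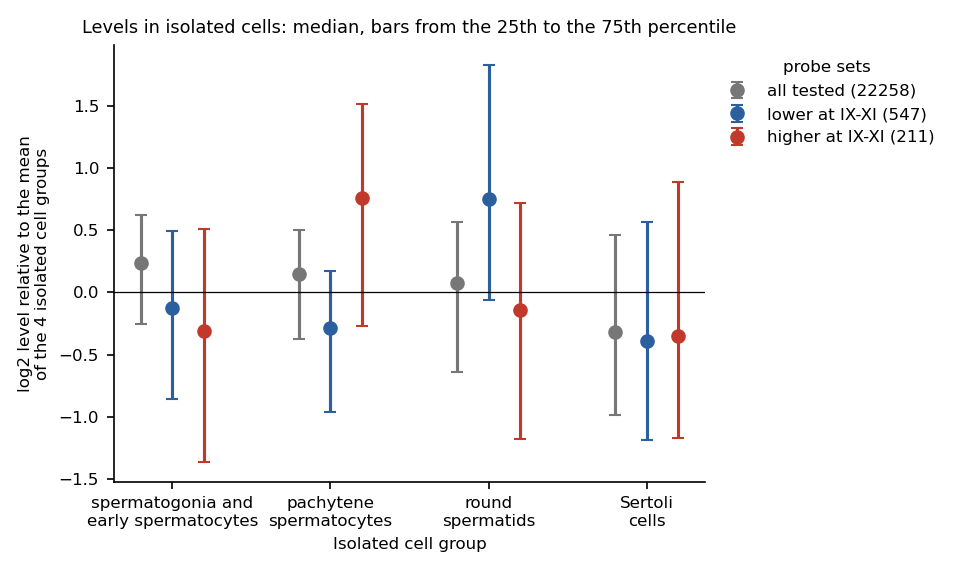
log2 level in each isolated cell group relative to the mean of the 4 groups, as the median over probe sets with bars from the 25th to the 75th percentile, for all 22258 probe sets tested (grey), the 547 lower (blue) and the 211 higher (red) at stages IX-XI. The lower set is highest in round spermatids (median 0.75) and the higher set in pachytene spermatocytes (0.76).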

How the data were processed

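RNA of 49 staged tubule samples and 20 others was measured on Affymetrix rat arrays, 1 array per sample. The deposited values are signal intensities on a linear scale, made by the authors with MAS5 per the submitters' processing notes (no version given), and each array had a mean of 100 after removal of 2% of values at each end. No detection calls were used here. Of 31099 probe sets, 57 controls were left out. Symbols came from the platform annotation (20826 probe sets with 1 gene, 436 with several, 9780 not listed), updated by gene ID through RefSeq (GRCr8).

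The fits used log2(signal + 5.11), where 5.11 is the 10th percentile of all values, with limma 3.58.1 in R 4.3.3 (package data.table, version 1.17.8): means of 10 stage groups over 49 tubules, moderated by a variance trend. A probe set was tested if its signal was above 43.7, the table median, in at least 3 tubules. Calls needed a Benjamini-Hochberg adjusted p under 0.05 over all probe sets tested, two-sided, and at least 2-fold; folds are on the log2 scale with the constant added, which understates weak genes. The number of arrays limits precision. Genes named are the 12 largest rises and falls (no overlap, mean of at least 200 in the higher group), for each of 23 lists the called genes (at most 4), and chosen genes of the retinoid, nuclear condensation, Sertoli cell and junction lists. The lists and genes were chosen with earlier results of these data known. The alternatives tried were other pseudocounts, filters, normalizations and fits, and the omission of samples.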

Additional observations from a re-analysis of the deposited data

Results flagged for a closer look

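Among the 47 named genes that were called, 12 of 94 groups of 5 samples held 1 sample far from the other 4, by a gap of more than 0.71 of the group's range. Chance alone marks about 1 in 20 such groups. Replicate 1 of stage VIII was that sample 5 times, and each time its signal lay on the side of stages IX-XI. It had 875 of Fam209 against 1219 to 1312 in the others, 337 of Klf4 against 510.4 to 572, 285 of Srgn against 438 to 498, 279.6 of Gosr1 against 115 to 154, and 164 of Mrc1 against 77.2 to 102. Its position between stages VIIc.d and XII, 0.313, was also the highest of the 5, against 0.188 to 0.230.

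At stage VIII, Prkcz had 66.2 in replicate 3 against 27.7 to 29.5, and Fam89b had 226 in replicate 4 against 175 to 184. At stages IX-XI, replicate 3 stood apart with 155 of Alas2 against 235 to 247, 232 of Mrc1 against 208 to 211, and 41.1 of Tmem89 against 9.92 to 17.8. Replicate 2 had 101 of Amhr2 against 78.8 to 81.8, and replicate 5 had 188 of Tekt5 against 244 to 258.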

How the results depend on the processing

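With 22 alternatives, the counts of 547 lower and 211 higher probe sets stayed within 1.5 times of these values in all but 1. That one, a pseudocount of 32, gave 243 and 59, of which 243 and 58 moved the same way between stages VIIc.d and XII, since a larger constant shrinks the folds of weak probe sets. Elsewhere the counts ran from 420 to 639 lower and 150 to 233 higher when no single sample was left out, and from 511 to 632 lower and 179 to 252 higher without 1 sample. No probe set was called in the opposite direction under any of the 22. Of 47 named genes called, 37 were called under every alternative and 42 kept an adjusted p under 0.05, the exceptions being A2m, Dhrs4, Dmrt1, Fosb and Gosr1. A pseudocount of 32 ended the 2-fold calls of A2m, Cyp51, Dmrt1, Dusp1, Fosb, Mrc1 and Vim, and leaving out replicates 2 and 3 of stages IX-XI those of A2m, Crybg2, Dhrs4, Dmrt1, Fosb, Gosr1 and Vim. Hils1, not called, changed sign, to -0.24 after quantile normalization, -0.028 after cyclic loess and -0.062 without replicates 2 and 3 of stages IX-XI. Samples of the same replicate number were weakly alike. The correlation of their deviations was 0.02 to 0.13, over 0.1 in 1 of 5, against -0.07 to 0.08 between samples of other numbers. Of the 5 samples of stage VIII, 3 correlated best with their own number. The fit with the replicate number as a block called 566 lower and 221 higher, among them 545 of the 547 and 209 of the 211. With the block, 3898 probe sets had an adjusted p under 0.05 in limma, against 3491 without it. The share of lower probe sets enriched in round spermatids, 19.6%, was 38.6% with a 2-fold limit and 14.3% with a pseudocount of 32, against 5.25% and 1.25% of all tested (2.03% with a pseudocount of 1). That of higher ones enriched in pachytene spermatocytes, 4.74%, was 19.9% with the 2-fold limit and 2.84% with a pseudocount of 32, against 0.220%, 2.32% and 0.0854% of all tested. The omission of replicates 4 and 5 of stage VIII together was chosen after seeing the data.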

Other observations

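At stage VIII, 21 probe sets had a mean at least 4-fold above that of every isolated cell group, of which 11 were called lower at stages IX-XI (2.46% of all probe sets tested were). The choice used the level at stage VIII, which favours falls, so this count supports nothing and the values are a description. The genes were chosen after their values were seen. Garin4, a gene of the Golgi of spermatids, was the strongest, with 1496 ± 63.4 at stage VIII and 461 ± 29.96 at stages IX-XI (log2 difference -1.69), against 314 in isolated round spermatids, the highest isolated group. Cc2d1a, for a regulator of endosomal sorting, had 284 ± 59.1 and 91.7 ± 24.2 (-1.58). Syne3, for the nuclear membrane protein nesprin-3, had 262 ± 29.03 and 57.6 ± 34.6 (-2.29), and Ephb3, for an ephrin receptor, 154 ± 27.95 and 52.5 ± 30.7 (-1.78). Fbxo2, for an F-box protein, and B3galt5, for a galactosyltransferase, were at or below 21.2 in all isolated groups and had log2 differences of -1.39 and -2.58. Cd37 and Zfp455l1 and 3 probe sets without a gene symbol made up the rest.

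Sertoli cell transcripts moved both ways. Among the named genes called at 2-fold whose level in isolated Sertoli cells was at least 4-fold that in each germ cell group, Prnd, Amhr2, Plau and A2m were lower at stages IX-XI, and Alas2 and Reep1 higher.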
